A study of Mus musculus with 4 samples.

Results

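The genes described here encode proteins of mitosis, from entry into division to the final cut between daughter cells. The list held 37 genes, and a gene was kept where the array annotation gave a row of the value table to that symbol alone. This left 35 genes of 22180 measured in all, each with a single row. Ncapg was dropped because its row is annotated to several genes, and Ccnb1 because no row was named for it alone. Levels were measured on Affymetrix arrays in the whole pancreas of mice aged 8 weeks, taken on day 5 of treatment with cerulein, a cholecystokinin analog that over-stimulates acinar cells and causes acute pancreatitis. It was given intraperitoneally at 100 µg/kg, with 6 injections on each treated day and a treated day every other day. The groups were Ifrd1 null mice (n = 2) and wild-type mice (n = 2), and mice of both genotypes had received cerulein. Untreated pancreas is not analysed here, so no level can be set against that of a resting gland. How the null allele was made, and the strain and litter of the mice, are not given in the sources used here.

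Mitosis is driven by cyclin-dependent kinase 1 bound to cyclin A or B, with the Aurora and Polo kinases acting beside it. Kinetochores tie chromosomes to the spindle, a checkpoint holds anaphase until all are tied, and a ubiquitin ligase then destroys the cyclins. Most of these genes are transcribed in G2 and M phase under the MuvB complex, which with DREAM partners represses them in resting cells and with B-Myb and FoxM1 activates them in cycling cells. In the adult pancreas few acinar cells divide, and after cerulein injury acinar, duct, stromal and immune cells can all enter the cycle. In whole tissue, fewer dividing cells and less mRNA per dividing cell cannot be told apart.

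The array groups were checked first. Ifrd1 stood at 6.99 and 7.09 in the Ifrd1 null arrays, against 9.04 and 9.07 in the wild-type arrays (log2), so each array went with its label. Their difference was -2.02 ± 0.11 (log2, SE), with limma adjusted p = 0.138, and where the row lies relative to the altered part of the gene is not known here. Genes of the sex chromosomes separated the arrays too. Xist, transcribed from the inactive X, was at 10.15 and 9.58 in the null arrays and 2.56 and 3.54 in the wild-type arrays, and Y-linked Uty was at 2.25 and 2.36 in the null arrays and 6.41 and 6.40 in the wild-type arrays. Genotype and sex as read from these genes cannot be told apart in any value below. Acinar markers were bright in every array, with 11 of 11 measured markers above the array median throughout. Of the mitosis genes, 29 lay above the array median in all arrays, and Bub1 and Hmmr lay below it in all of them. That median was taken over all 41345 rows, with or without a gene symbol. Of all 22180 genes, 9837 lay below it in at least 1 array, beside 6 of the 35 members. The table carries no detection calls, and a dim row may hold little signal of its gene.

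The regulatory sequences of the list are shown first, since its members are known to be transcribed together. Promoters of 4 members are given below from the RefSeq table of build GRCm38.p6: Cdk1 and Ttk, whose levels stood furthest apart between the genotypes, and Mki67 and Top2a, common markers of cycling cells. Each window is read 5′ to 3′ on the gene's strand, begins 250 bases before the annotated start and stops where the earliest annotated start of that gene lies. Capitals mark the cell cycle genes homology region, CHR (TTTGAA), its variant TTCGAA and the CCAAT box, each searched on either strand, so that ATTGG is a CCAAT box and TTCAAA a CHR on the other strand. The last letter of a CCAAT box can also begin a CHR, and each motif was counted where it occurred.

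Cdk1, chr10:69352913-69353162, minus strand, 250 bases: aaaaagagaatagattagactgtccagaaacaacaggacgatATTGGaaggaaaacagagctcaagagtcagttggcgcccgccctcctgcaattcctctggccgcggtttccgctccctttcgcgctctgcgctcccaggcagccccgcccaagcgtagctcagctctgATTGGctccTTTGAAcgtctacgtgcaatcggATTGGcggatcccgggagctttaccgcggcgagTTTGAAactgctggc

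Ttk, chr9:83834439-83834650, plus strand, 212 bases: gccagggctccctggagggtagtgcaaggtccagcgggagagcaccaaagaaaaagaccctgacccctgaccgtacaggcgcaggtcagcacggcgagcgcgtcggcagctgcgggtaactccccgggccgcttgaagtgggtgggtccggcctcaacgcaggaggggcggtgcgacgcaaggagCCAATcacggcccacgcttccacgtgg

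Mki67, chr7:135716451-135716629, minus strand, 179 bases: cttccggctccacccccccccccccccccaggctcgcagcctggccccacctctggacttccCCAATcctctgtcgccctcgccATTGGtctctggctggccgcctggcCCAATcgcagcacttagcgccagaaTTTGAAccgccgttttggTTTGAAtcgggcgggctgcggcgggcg

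Top2a, chr11:99024200-99024439, minus strand, 240 bases: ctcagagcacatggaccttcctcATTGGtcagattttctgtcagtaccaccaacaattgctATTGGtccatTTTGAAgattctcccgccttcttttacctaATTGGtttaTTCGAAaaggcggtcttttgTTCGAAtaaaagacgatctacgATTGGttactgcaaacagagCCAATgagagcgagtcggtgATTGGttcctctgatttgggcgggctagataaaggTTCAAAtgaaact

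The CHR binds the MuvB complex and the CCAAT box binds the factor NF-Y. The Cdk1 promoter holds a CHR at -71 and another at -15, counted from the annotated start to the motif's first base, and CCAAT boxes at -208, -80 and -48. In Ttk a CCAAT box lies at -65 and another at -28, past the stretch shown, and a CHR follows the start at 8. Mki67 holds CHRs at -116 and -98, and Top2a at -179 and -23 with the variant between them.

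The table gave 32 promoters for 30 of the measured members, with none for Ccna2, Foxm1, Aurkb, Tpx2 and Kif20a. In the 250 bases before the start, 11 of 32 held a CHR (34.4%, against 16% of all 32851 promoters) and 24 held a CCAAT box (75%, against 33.8%). With the 50 bases after the start included, a range added after the first counts were seen, a CHR was present in 25 of 32 (78.1%, against 17.9% of all promoters). A CHR or its variant together with a CCAAT box was then present in 23 of 32 (71.9%, against 7.52%). The CHR nearest to the start lay between -103 and 41, with a median of 8, and after the start in 16 of the 25. Other mitosis genes held a CHR in 54.8% of promoters over the same 300 bases. The share was 36.8% for MuvB, E2F and B-Myb regulators, 11.1% for DNA replication genes and 11.1% for anaphase-promoting complex genes. A CCAAT box was present in 66.1% of promoters of other mitosis genes, 47.4% of those of the regulators, 55.6% of those of replication genes and 38.9% of those of the complex, against 37.4% of all. These matches describe the letters of the windows and show no binding.

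**Figure D1:**
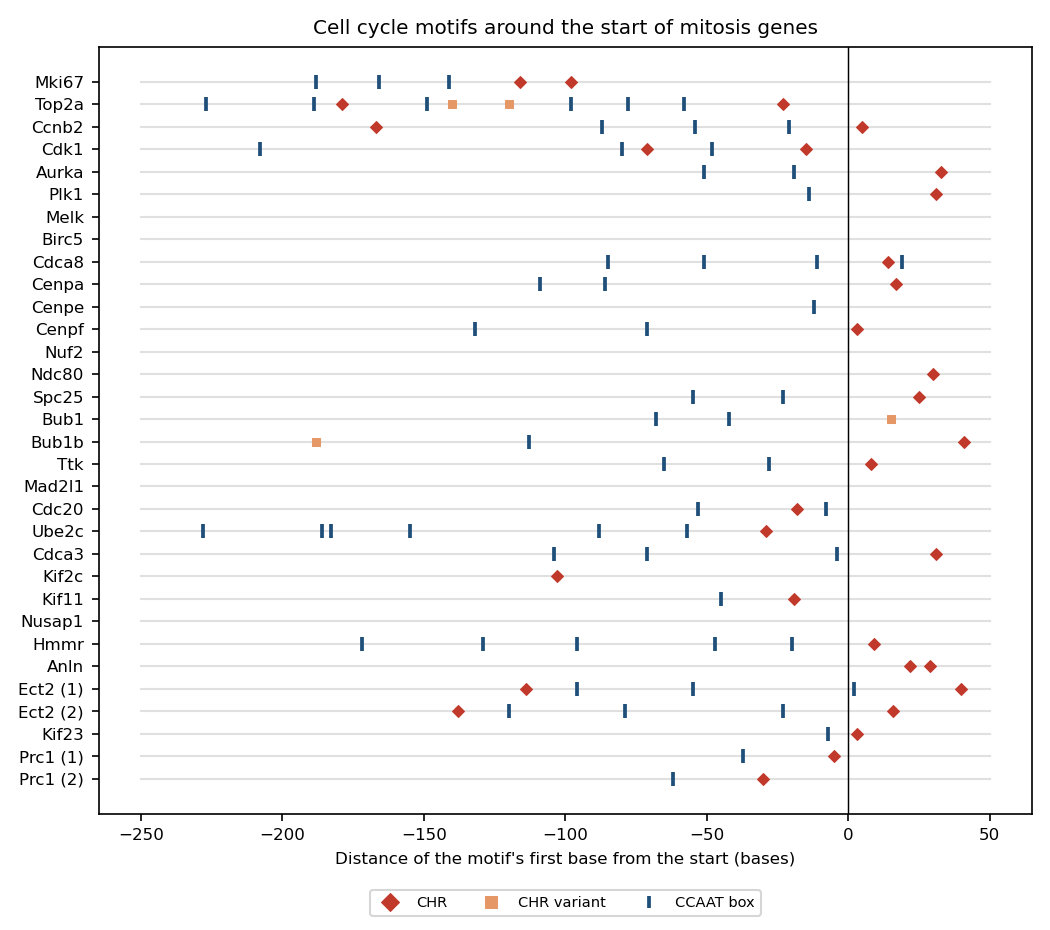
Distance in bases from the annotated start (0) to the first base of each CHR, CHR variant and CCAAT box, in the 32 promoters of 30 mitosis genes, from 250 bases before to 50 after the start. CCAAT boxes lie mostly before the start and the nearest CHR around it, with a median position of 8.

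Across the list the genotypes differed little. No member passed the adjusted threshold of 0.05 (0 of 35, limma with Benjamini-Hochberg over all 22180 genes, adjusted p from 0.721 to 0.997). Of all genes 1 did (0.00451%), Uty. With 2 arrays a group few differences can pass the adjustment, so these counts say little about differences of the sizes seen here. At unadjusted p under 0.05 there were 2 members below wild type, Cdk1 and Ttk (5.71%, against 3.63% of all genes), and 0 above it (against 3.27%). The median difference, Ifrd1 null minus wild type, was -0.02 on the log2 scale over the 35 members and -0.01 over all genes. With each array left out in turn the members' median lay between -0.08, without Ifrd1 null 1, and 0.02, without Ifrd1 null 2, so its sign is not settled. Of the members, 33 of 35 differed by less than 0.2, as did 15117 of all 22180 genes. The mean was below wild type for 21 members (60%, against 52.7% of all genes), a count that was 18 with quantile normalization and 23 with arrays centred on their medians.

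**Figure D2:**
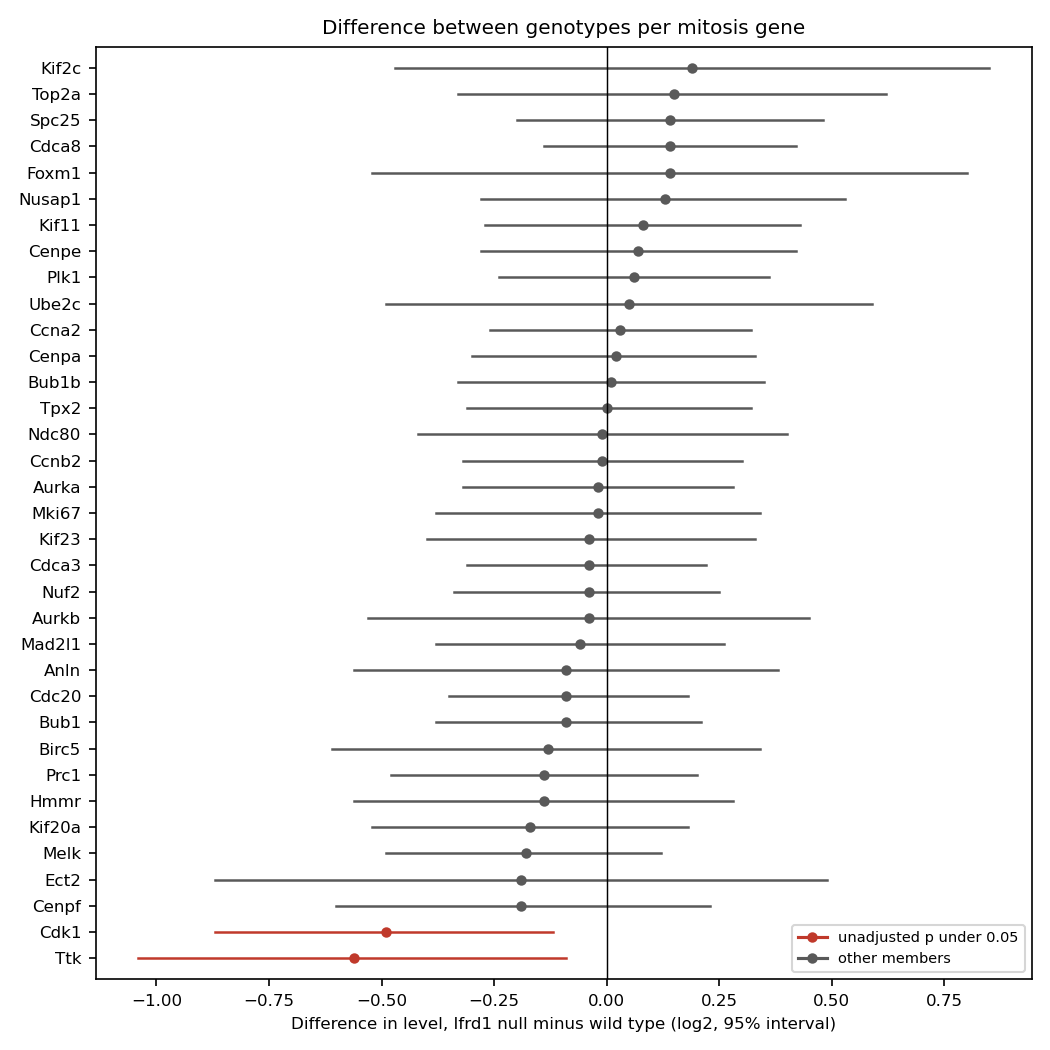
Difference in level between Ifrd1 null and wild-type arrays for each of the 35 mitosis genes (log2), as points with limma's 95% intervals, which are not adjusted for the number of genes. Cdk1 (-0.49) and Ttk (-0.56), drawn in red, are the members whose interval excludes 0, and the other 33 lie between -0.19 and 0.19.

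With few arrays the intervals are wide, so a small difference does not show that a gene was alike in the genotypes. The 95% interval of limma lay within a 1.5-fold change in either direction for 26 of 35 members and within a 2-fold change for 34, all but Ttk. Groups were fully separated, with both null arrays below both wild-type arrays, for 7 members (20%, against 19.7% of all genes) and with both above for 2 (5.71%, against 16.1%). The members below were Cdk1, Melk, Ttk, Cdc20, Cdca3, Kif20a and Prc1, and those above were Cdca8 and Spc25. The genotype difference was larger than the difference between arrays of either genotype for 6 members (17.1%, against 23.7% of all genes). The share of separated genes was thus near the background in the lower direction and under it in the higher.

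Mki67, the nuclear protein that coats mitotic chromosomes and marks cells outside the resting state, had levels of 6.95 and 6.71 in the null arrays and 6.79 and 6.91 in the wild-type arrays. The groups overlapped fully. Its difference was -0.02 ± 0.13 (log2, SE), and it was 0.07 instead with quantile normalization and 0.07 with cyclic loess. The 95% interval ran from -0.38 to 0.34, which is 0.77 to 1.26 times the wild-type level. Top2a, the topoisomerase that untangles sister chromosomes, was at 5.63 and 5.19 in the null arrays and 5.25 and 5.27 in the wild-type arrays. Ifrd1 null 1 stood above the other 3 arrays, which lay close together, and the difference was 0.15 ± 0.18 (SE).

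Cdk1, the kinase that drives entry into mitosis, was at 5.07 and 4.78 in the null arrays and at 5.39 and 5.44 in the wild-type arrays. The null arrays were both below the wild-type arrays, with means of 4.92 ± 0.21 in the null and 5.42 ± 0.04 in wild type (SD, n = 2 each). The difference was -0.49 ± 0.14 (log2, SE), or 1.41-fold lower, with an adjusted p of 0.721 in limma. It kept its sign with each array left out, from -0.64 without Ifrd1 null 1 to -0.35 without Ifrd1 null 2, and its adjusted p lay between 0.473 and 0.89 over all alternatives tried. Its measured cyclin partners, Ccna2 and Ccnb2, showed no such separation, and Ccnb1, cyclin B1, had no row named for it alone. Ccna2, cyclin A2, stood at 5.60 in each null array and at 5.50 and 5.64 in the wild-type arrays, a difference of 0.03 ± 0.11 (SE). Ccnb2, cyclin B2, stood at 5.68 and 5.79 in the null arrays and 5.82 and 5.67 in the wild-type arrays, and differed by -0.01 ± 0.12 (SE), or by 0.05 under quantile normalization or cyclic loess.

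Among the kinases and the transcription factor of mitotic entry, all groups but those of Melk overlapped. Aurka, the centrosomal Aurora kinase, differed by -0.02 ± 0.11, with 0.02 after quantile normalization, and Plk1, the Polo kinase, by 0.06 ± 0.11 (log2, SE). Melk, a kinase high in dividing progenitors, was at 5.00 and 5.12 in the null arrays and 5.19 and 5.31 in the wild-type arrays. Its difference was -0.18 ± 0.11 (SE), with an adjusted p of 0.762 in limma. Foxm1, the activator of late cell cycle genes, varied more within each genotype than between them. It was at 4.65 and 4.21 in the null arrays and at 4.55 and 4.04 in the wild-type arrays, a difference of 0.14 ± 0.25 (SE).

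The chromosomal passenger complex corrects faulty attachments and guides cytokinesis. Its kinase Aurkb differed by -0.04 ± 0.18 (0.007 with quantile normalization) and its subunit Birc5, survivin, by -0.13 ± 0.18 (log2, SE). Cdca8, borealin, was at 4.44 and 4.38 in the null arrays and 4.22 and 4.32 in the wild-type arrays, and it was 1 of the 2 members with both null arrays on top. That difference was 0.14 ± 0.11 (SE), with an adjusted p of 0.781 in limma. Birc5 was dim, under the array median in 3 of the arrays.

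Of 6 centromere and kinetochore genes, 3 had a higher and 3 a lower mean in the null (median 0.01). Cenpa, the histone variant that marks centromeres, differed by 0.02 ± 0.12, and the motor Cenpe by 0.07 ± 0.13 (log2, SE). The Ndc80 complex binds microtubules, and its subunits stood at -0.04 ± 0.11 for Nuf2, -0.01 ± 0.15 for Ndc80 and 0.14 ± 0.13 for Spc25 (SE). Spc25 was at 4.60 and 4.37 in the null arrays against 4.34 in each wild-type array, and its difference was 0.03 without Ifrd1 null 1. Cenpf, a large kinetochore protein of late G2, was at 3.88 and 3.83 in the null arrays and 3.86 and 4.22 in the wild-type arrays. Only wild type 2 stood apart there, and the difference of -0.19 ± 0.16 (SE) was -0.0091 without it. Cenpf was dim, under the array median in 3 of the arrays.

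Ttk, the kinase that starts checkpoint signalling at kinetochores, had the most negative difference of the 35 members. It was at 3.70 and 3.41 in the null arrays and 3.95 and 4.28 in the wild-type arrays, with means of 3.56 ± 0.21 in the null and 4.12 ± 0.23 in wild type (SD, n = 2 each). The difference was -0.56 ± 0.18 (log2, SE), or 1.48-fold lower, with an adjusted p of 0.721 in limma (0.476 to 0.89 over the alternatives). All null values lay below all wild-type values, yet 3 of 4 arrays were below their array median, so the difference is not exact. It lay between -0.73 without wild type 1 and -0.40 without wild type 2. The other checkpoint genes stood near 0: Bub1 at -0.09 ± 0.11, Bub1b at 0.01 ± 0.13 and Mad2l1 at -0.06 ± 0.12 (SE). Bub1b was at -0.04 under quantile normalization, -0.03 under cyclic loess and -0.0056 under median centring.

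The unadjusted count of 2 members changed with the arrays used, while the differences of Cdk1 and Ttk kept their sign. Without wild type 1 it was 1, which was Cenpf, and without wild type 2 it was 0. Without Ifrd1 null 1 it was 1, Cdk1. Without Ifrd1 null 2 it was 2, Cdk1 and Ect2, with Top2a and Kif2c as 2 members above wild type.

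Ubiquitin ligases set the order of mitotic steps by destroying proteins. Cdc20, its activator, was at 5.26 in each null array and at 5.35 and 5.33 in the wild-type arrays. Cdca3, which brings the kinase Wee1 to destruction at mitotic entry, was at 4.62 and 4.61 in the null arrays and 4.67 and 4.65 in the wild-type arrays. Both were fully separated, with differences of -0.09 ± 0.10 and -0.04 ± 0.10 (log2, SE) that did not exceed their SE. Ube2c, a ubiquitin-conjugating enzyme of the anaphase-promoting complex, varied within the genotypes. It was at 5.24 and 5.04 in the null arrays and 5.33 and 4.85 in the wild-type arrays, and differed by 0.05 ± 0.20 (SE).

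Of 5 spindle motors and microtubule proteins, 4 had a higher mean in the null (median 0.08). Kif2c, a kinesin that takes microtubules apart at centromeres, had the largest positive difference of the list, 0.19 ± 0.25 (log2, SE). It rested on Ifrd1 null 1, at 5.17, with 4.51 in Ifrd1 null 2 and 4.57 and 4.72 in the wild-type arrays. Without Ifrd1 null 1 the difference was -0.13. Kif11, the motor that pushes spindle poles apart, was at 0.08 ± 0.13, the spindle assembly factor Tpx2 at 0.00 ± 0.12 (-0.01 with median centring), Nusap1, which bundles spindle microtubules, at 0.13 ± 0.15, and Hmmr at -0.14 ± 0.16 (SE).

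All 5 genes of the central spindle and of cytokinesis had a lower mean in the null (median -0.14), and none reached unadjusted p under 0.05. Kif20a, a kinesin of the midzone, was at 4.82 and 4.77 in the null arrays and 4.84 and 5.09 in the wild-type arrays, a difference of -0.17 ± 0.13 (log2, SE). Prc1, which bundles the midzone microtubules, was at 5.33 and 5.35 in the null arrays and 5.36 and 5.60 in the wild-type arrays, a difference of -0.14 ± 0.13 (SE). In each, wild type 2 was the high array and wild type 1 lay close to the null arrays. Without wild type 2 the differences were -0.05 for Kif20a and -0.02 for Prc1. Anln, a scaffold of the contractile ring, differed by -0.09 ± 0.18, and Kif23, a subunit of centralspindlin, by -0.04 ± 0.14 (SE). Ect2, the exchange factor that activates RhoA, was at 6.00 and 6.68 in the null arrays and 6.46 and 6.61 in the wild-type arrays. Its difference of -0.19 ± 0.26 (SE) rested on Ifrd1 null 1, and it was 0.15 without that array.

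**Figure D3:**
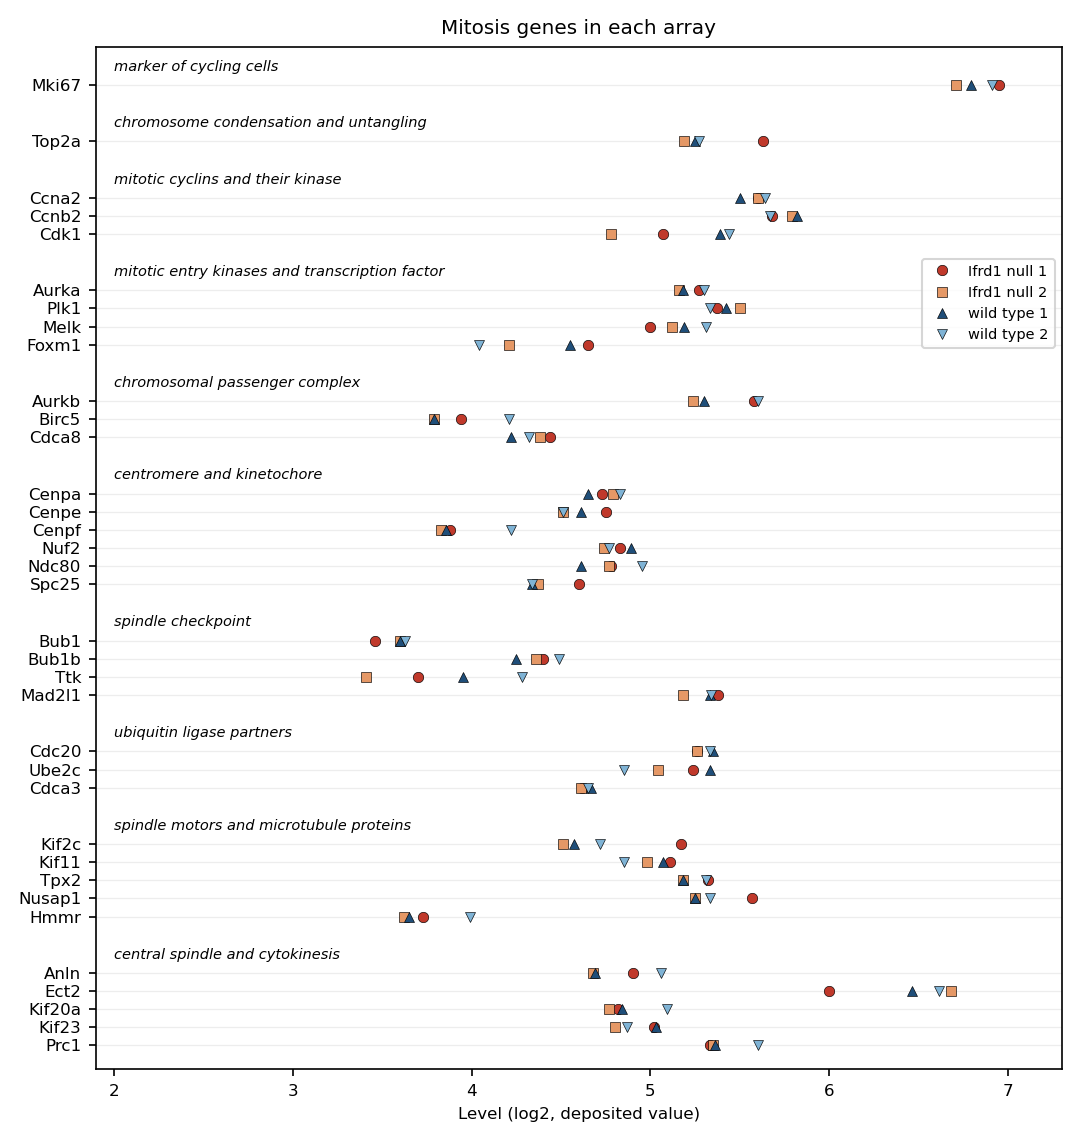
Deposited log2 level of each measured mitosis gene in the 2 Ifrd1 null and 2 wild-type arrays, grouped by role. Each point is 1 array, and levels are to be read within a gene, since rows of different genes are not on a common scale. The null points lie apart from the wild-type points for Cdk1 and Ttk, and the groups mostly mix elsewhere.

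Differences between the arrays of a genotype are given next. Ifrd1 null 1 was above Ifrd1 null 2 for 27 of 35 members (77.1%, against 45.9% of all genes), with a median difference of 0.11. Wild type 1 was above wild type 2 for 10 of 35 (28.6%, against 45.1% of all genes), with a median of -0.11. Among genes of the anaphase-promoting complex, 81.2% were higher in Ifrd1 null 1 and 25% in wild type 1. Among other mitosis genes, 52.3% were higher in Ifrd1 null 1 and 47.7% in wild type 1. In the same order, the shares were 33.3% and 61.1% for MuvB, E2F and B-Myb regulators. For DNA replication genes they were 43.2% and 54.1%. The lowest of the 4 arrays was Ifrd1 null 2 for 18 members (51.4%, against 27.7% of all genes), and the highest was wild type 2 for 16 (45.7%, against 25%). Among the exceptions, Foxm1 and Ube2c were higher in wild type 1, and Ect2 was lower in Ifrd1 null 1 than in Ifrd1 null 2. No test was made of these orders, which rest on single arrays.

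Markers of other cell types differed between the null arrays as well, and their part in the order of the mitosis genes was not tested. Of 9 B and plasma cell markers, all were higher in Ifrd1 null 1 than in Ifrd1 null 2, by a median of 1.21. Their summed log2 levels were 54.8 and 43.2 in the null arrays and 47.0 in each wild-type array, and 1 lay below the array median throughout. Of 10 macrophage markers, all were higher in Ifrd1 null 1, by a median of 0.71, with sums of 87.8 and 79.9 in the null arrays and 84.4 and 85.8 in the wild-type arrays. All 9 adipocyte markers went the same way by a median of 1.36, with sums of 59.8 and 49.1 in the null arrays and 51.3 and 55.7 in the wild-type arrays. Acinar markers were lower in Ifrd1 null 1 for 11 of 11, by a median of 0.56, with sums of 123.3 and 129.2 in the null arrays and 126.4 and 126.0 in the wild-type arrays. All 10 stellate cell and fibroblast markers were higher in Ifrd1 null 1, by a median of 0.49, with sums of 89.9 and 84.1 in the null arrays and 89.4 and 87.7 in the wild-type arrays. Between genotypes, all 9 T and NK cell markers had a higher mean in the null (median 0.32), with 3 of the 9 below the array median throughout, as had 8 of 9 B and plasma cell markers (median 0.27). Lower means in the null were found for 6 of 8 duct markers (median -0.37) and 7 of 9 islet markers (median -0.32). The same held for 9 of 10 endothelial markers (median -0.18) and 8 of 10 stellate cell and fibroblast markers (median -0.13). It also held for 9 of 10 macrophage (-0.07), 7 of 11 acinar (-0.02) and 6 of 10 intestinal markers (-0.31), against 52.7% of all genes. Means were higher for 8 of 10 neutrophil markers (median 0.16) and 5 of 9 adipocyte markers (median 0.03). Of the neutrophil markers 6 lay below the array median throughout. In wild type, 10 of 10 markers of intestinal epithelium were higher in wild type 1, by a median of 0.38. Their sums were 48.7 and 50.5 in the null arrays and 58.8 and 49.9 in the wild-type arrays. The largest of these differences were 2.93 for Lgals4, 2.06 for Agr2 and 1.79 for Muc2, and the others lay between 0.09 and 0.57. Of the 10, 3 lay below the array median throughout.

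**Figure D4:**
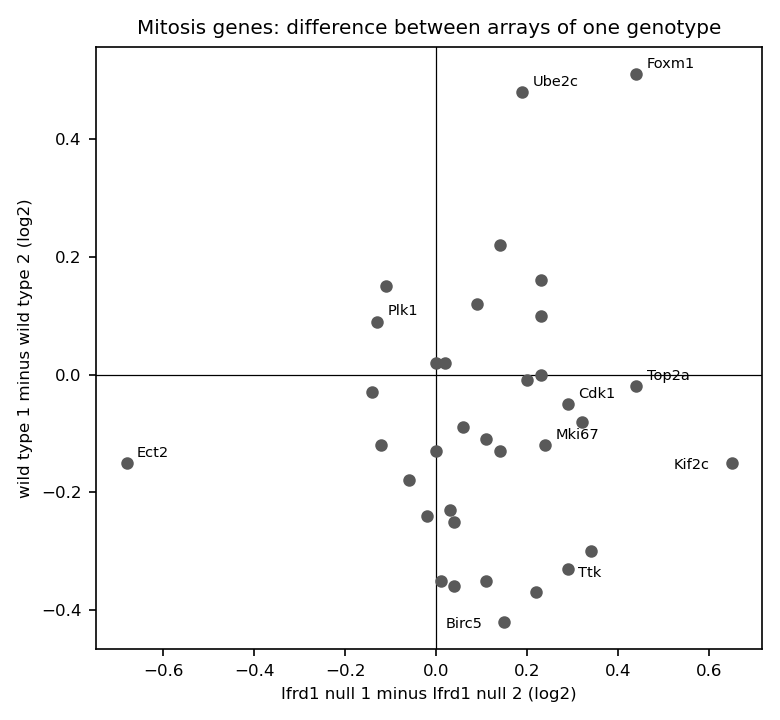
For each of the 35 mitosis genes, the difference between the Ifrd1 null arrays (x axis) and between the wild-type arrays (y axis), both array 1 minus array 2 in log2. 19 genes (54.3%, against 24.8% of all genes) fall at the lower right, higher in Ifrd1 null 1 than in Ifrd1 null 2 and lower in wild type 1 than in wild type 2.

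Further cell cycle lists were set beside the 35 members. The 65 other mitosis genes split into 31 with a higher and 34 with a lower mean in the null (median -0.01). At unadjusted p under 0.05 in limma there were 2 of the 65 below wild type and 2 above it. Over all genes the shares were 3.63% below and 3.27% above. Cdc25c, the phosphatase that activates Cdk1, was at 3.19 and 3.21 in the null arrays and 3.50 and 3.54 in the wild-type arrays, a difference of -0.32 ± 0.10 (log2, SE) at levels below the array median. Cenpn, a reader of the centromeric nucleosome, was at 4.82 and 4.95 in the null arrays and 4.50 and 4.58 in the wild-type arrays, a difference of 0.35 ± 0.11 (SE). Tubb5, a beta-tubulin and the brightest row of that list, differed by -0.33 ± 0.18 (SE), and by -0.56 without Ifrd1 null 1 and -0.11 without Ifrd1 null 2. None passed over all genes (limma adjusted p of 0.721 for Cdc25c and Cenpn and 0.755 for Tubb5).

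Regulators of cell cycle promoters differed in both directions. Of 18 MuvB, E2F and B-Myb regulators 9 had a higher and 9 a lower mean in the null, with 0 at unadjusted p under 0.05 in limma. Rbbp4, the histone-binding subunit of MuvB, differed by -0.18 ± 0.10 (log2, SE), or -0.08 with quantile normalization and -0.07 with cyclic loess. Rb1, the retinoblastoma repressor, differed by -0.15 ± 0.11, or 0.03 with the mean of its rows, and Tfdp1, the E2F partner, by -0.05 ± 0.10, with 0.05 after quantile normalization and 0.06 after cyclic loess (SE). The anaphase-promoting complex list of 16 genes held its subunits with the activator Fzr1 and the ubiquitin-conjugating enzyme Ube2s. Of the 16, 13 had a lower mean, with a median of -0.09 that was -0.01 with quantile normalization. Anapc7 was at -0.33 ± 0.17, and at -0.50 without Ifrd1 null 1, -0.22 without wild type 2 and -0.15 without Ifrd1 null 2. Anapc2 was at -0.20 ± 0.11, or -0.11 with quantile normalization and -0.10 with cyclic loess. Anapc13 was at -0.03 ± 0.11, which became 0.03 with quantile normalization and 0.07 with cyclic loess (SE).

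DNA replication genes act in the S phase before mitosis. Of 37 measured, 29 had a lower mean in the null (median -0.13), beside 21 of 35 and -0.02 for the mitosis genes. Groups were fully separated with the null below for 21 of the 37 (against 19.7% of all genes), and 6 reached unadjusted p under 0.05 (against 3.63%). Such separation was also found for 9 of 16 anaphase-promoting complex genes, 6 of 18 regulators and 10 of 65 other mitosis genes. With the null above, it was found for 1 replication gene, and for 2, 2 and 5 genes of those lists in the same order. Over all genes that share was 16.1%. Mcm5 was at -0.56 ± 0.13 and Mcm7 at -0.47 ± 0.11, both subunits of the replicative helicase, and Pcna, the sliding clamp, at -0.10 ± 0.11, or 0.0056 with cyclic loess (log2, SE). No replication gene passed over all genes (limma adjusted p of 0.721 for Mcm5 and Mcm7). Separation was counted on the deposited values only. With quantile normalization the median was -0.12 for replication genes, and -0.01 for the anaphase-promoting complex, against -0.09 as deposited. The difference between the lists was not tested.

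**Figure D5:**
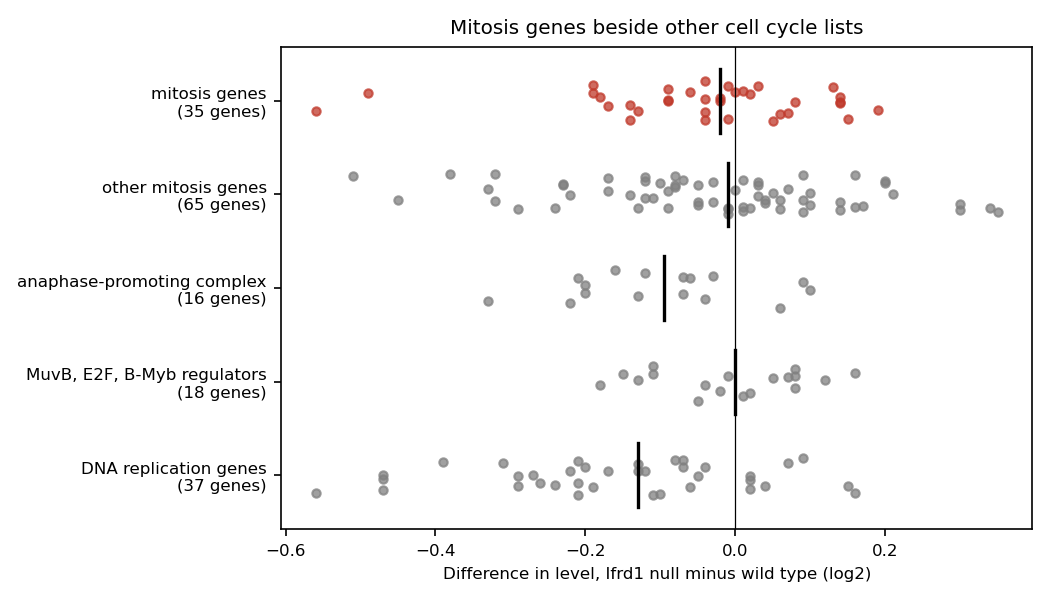
Difference in level, Ifrd1 null minus wild type (log2), of each measured gene in 5 cell cycle lists, with 1 point per gene and the list median as a black bar. The medians are -0.02 for the mitosis genes, in red, -0.01 for other mitosis genes and -0.13 for DNA replication genes.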

How the data were processed

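Total RNA of whole pancreas was hybridised to Affymetrix arrays after biotin labelling, per the labels' protocols. The values are the authors' deposited levels per row, read as log2 from their range (0.218 to 13.9). Log base, background correction, summary and normalization are not given in the sources used here. Array medians lay between 4.08 and 4.15. Of 41345 rows, 23521 had 1 gene symbol in the platform annotation, 1814 several and 16010 none here, which left 22180 genes (brightest row per gene, 1082 genes with several rows). Genotypes were compared with limma 3.58.1 in R 4.3.3 as the null minus the wild-type mean, with no covariate, two-sided, with Benjamini-Hochberg adjustment over all genes and a threshold of 0.05. The script was tested on simulated data. With 2 arrays a group their number limits the precision, and the labels call them biological replicates.

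Values per array are given for members with unadjusted p under 0.05, the 5 largest positive and negative differences, Mki67 and Top2a; members whose values follow beside these were named for their role. Of each further list, the brightest gene and the pair with the smallest p are named. Members, lists and motifs were chosen with earlier results of these data known. Promoters are from RefSeq, matched by symbol.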

Additional observations from a re-analysis of the deposited data

How the results depend on the processing

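Alternatives were quantile normalization, cyclic loess, median centring, the replicate number as a block, trend and robust eBayes, genes above the median level, the mean of rows per gene, and each array left out. The labels do not say whether arrays of the same replicate number belong together. Differences between arrays 1 and 2 of the genotypes correlated at -0.035 across 22180 genes, which does not settle it for each gene. With the replicate block the members' median stayed at -0.02, with 2 members below wild type at unadjusted p under 0.05 in limma. The block changed no other call. The unadjusted count was 1 among genes above the median level, where 24 members remained. That level is the median of the gene means, not the array median over all rows. Ifrd1 passed the threshold with median centring (-2.03, adjusted p = 0.0349) and with trend and robust eBayes (-2.02, adjusted p = 0.0419). List medians moved for other mitosis genes (-0.04 with quantile normalization and with cyclic loess, against -0.007), the anaphase-promoting complex (-0.01 and -0.0059, against -0.09), the MuvB, E2F and B-Myb regulators (0.04 and 0.05, against -0.0015) and, among genes above the median level, DNA replication genes (-0.18, against -0.13). The cause was not tested. Of the 35 members, 11 kept their sign in every setting and 24 did not. Signs turned with quantile normalization for Mki67 (0.07), Ccnb2 (0.05), Aurka (0.02), Aurkb (0.007), Bub1b (-0.04), Anapc13 (0.03) and Tfdp1 (0.05), with cyclic loess for Mki67 (0.07), Ccnb2 (0.05), Aurka (7.4e-06), Bub1b (-0.03), Anapc13 (0.07), Tfdp1 (0.06) and Pcna (0.0056), with median centring for Bub1b (-0.0056) and Tpx2 (-0.01), and with the mean of rows per gene for Rb1 (0.03). With arrays left out in turn, the members below wild type at unadjusted p under 0.05 numbered 0 to 2, those above it 0 to 2, and the list medians lay from -0.08 to 0.02 (the 35 mitosis genes), -0.15 to -0.06 (anaphase-promoting complex), -0.06 to 0.05 (MuvB, E2F and B-Myb regulators) and -0.16 to -0.13 (DNA replication genes). Differences then ran from the lower to the higher value given: Mki67 -0.14 to 0.10, Top2a -0.07 to 0.37, Ccna2 -0.04 to 0.09, Ccnb2 -0.09 to 0.06, Aurka -0.08 to 0.03, Plk1 -0.0071 to 0.12, Foxm1 -0.11 to 0.40, Aurkb -0.21 to 0.13, Birc5 -0.34 to 0.07, Cenpa -0.07 to 0.11, Cenpe -0.05 to 0.19, Nuf2 -0.11 to 0.02, Ndc80 -0.18 to 0.17, Bub1b -0.11 to 0.13, Mad2l1 -0.16 to 0.04, Ube2c -0.19 to 0.29, Kif2c -0.13 to 0.52, Kif11 -0.02 to 0.19, Tpx2 -0.07 to 0.07, Nusap1 -0.04 to 0.29, Hmmr -0.32 to 0.03, Anln -0.27 to 0.10, Ect2 -0.53 to 0.15, Kif23 -0.15 to 0.07, Anapc13 -0.08 to 0.03. A lone array of a genotype is assumed there to vary like the other genotype's.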
